A study of Mus musculus with 81 samples.

Results

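The immediate early genes described here are Fos, Fosb, Junb, Egr1, Egr2, Egr3, Egr4, Nr4a1, Npas4 and Arc, 10 genes taken by name from the 57010 genes of the deposited tables. All 10 were found in the libraries of each of the 3 neuron populations. They are described in every library, by population, genotype and maternal diet.

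The study isolated CA1 pyramidal neurons (CA1 PNs), CA3 pyramidal neurons (CA3 PNs) and dentate gyrus granule cells (DGCs) by laser capture microdissection from Nissl-stained hippocampal sections, and sequenced the RNA of each population of each mouse. There were 81 libraries of 28 mice at 6 MO: 27 of CA1 PNs, 26 of CA3 PNs and 28 of DGCs. Ts mice carry the Ts65Dn marker chromosome, a partial triplication of the genes orthologous to human chromosome 21 that also holds triplicated genes without such an ortholog, and 2N mice are disomic controls from the same crosses, on a mixed background. Dams received chow with 1.1 g/kg choline chloride (ChN, the normal diet) or 5.0 g/kg (ChP, the supplemented diet) through gestation and lactation. After weaning all mice ate the normal diet. The animals were 6 MO males as far as the study describes the normal-diet groups, and all dams, those of the 2N mice included, were Ts65Dn females. The groups held 6 2N ChN mice, 6 Ts ChN mice, 7 2N ChP mice and 9 Ts ChP mice, with a CA1 PN library of 5 of the Ts ChN mice and a CA3 PN library of 7 of the Ts ChP mice. On average about 950 neurons of CA1, 750 of CA3 and 1175 of the dentate gyrus were captured per brain, so each library is a bulk sample in which fewer cells of a type and less RNA per cell cannot be told apart.

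Immediate early genes are transcribed within minutes of synaptic activity, without new protein synthesis, when calcium and kinase signals reach transcription factors such as CREB, SRF and MEF2 that already sit on their promoters. Most encode transcription factors that go on to switch on later genes, and others such as Arc act at the synapse itself. In the hippocampus their messages are widely used as a mark of recently active neurons, and their level in a tissue depends on what the animal experienced shortly before death.

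The members fall into 5 groups by role. Fos (chr12:85520658-85524047), Fosb (chr7:19036621-19043976) and Junb (chr8:85701113-85705359) encode subunits of the dimeric transcription factor AP-1. Egr1, Egr2 (chr10:67371305-67378018), Egr3 (chr14:70314350-70320063) and Egr4 (chr6:85485678-85490675) encode zinc finger transcription factors of the EGR family. Nr4a1 (chr15:101151980-101172681) encodes an orphan nuclear receptor, and Npas4 (chr19:5034382-5040344) a bHLH-PAS factor that responds to calcium entry in neurons. Arc (chr15:74540932-74544419) encodes a cytoskeleton-associated protein that takes part in the removal of AMPA receptors from synapses. These positions are those of the Gencode annotation of GRCm39.

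The 250 bases upstream of the transcription start can carry some of the elements through which such genes are switched on. They are shown for 5 members that lead the comparisons below. RefSeq windows (build GRCm38.p6, which is not the build of the counts) were found for 7 of the 10 members: Fos, Fosb, Junb, Egr2, Egr4, Nr4a1 and Npas4. Arc, Egr1 and Egr3 were not matched. Capitals mark matches to 3 motifs: the short form of the cAMP response element (CRE), to which CREB binds (CGTCA, or TGACG on the other strand), the CArG box, to which SRF binds, and the EGR site (GCGGGGGCG, or CGCCCCCGC on the other strand). The windows are those of Fos (chr12:85473640-85473889, plus strand), Egr2 (chr10:67537619-67537868, plus strand, 1 of 5 windows of that gene), Egr4 (chr6:85513590-85513839, minus strand), Nr4a1 (chr15:101266596-101266845, plus strand) and Npas4 (chr19:4989972-4990221, minus strand), each written 5′ to 3′ along the gene.
Fos: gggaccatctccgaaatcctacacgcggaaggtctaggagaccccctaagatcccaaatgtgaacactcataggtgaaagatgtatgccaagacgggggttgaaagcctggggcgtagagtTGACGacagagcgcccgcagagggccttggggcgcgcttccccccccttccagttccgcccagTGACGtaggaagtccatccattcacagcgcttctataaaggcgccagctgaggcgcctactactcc
Egr2: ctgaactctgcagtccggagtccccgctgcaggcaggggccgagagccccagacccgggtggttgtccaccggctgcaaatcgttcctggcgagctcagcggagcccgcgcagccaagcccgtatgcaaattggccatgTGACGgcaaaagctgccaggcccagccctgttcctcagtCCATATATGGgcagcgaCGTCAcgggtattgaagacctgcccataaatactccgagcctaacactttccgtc
Egr4: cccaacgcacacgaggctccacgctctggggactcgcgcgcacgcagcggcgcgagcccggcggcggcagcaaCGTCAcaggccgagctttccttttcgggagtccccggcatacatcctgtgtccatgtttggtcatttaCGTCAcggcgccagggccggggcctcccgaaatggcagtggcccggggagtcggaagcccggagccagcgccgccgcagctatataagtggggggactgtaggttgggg
Nr4a1: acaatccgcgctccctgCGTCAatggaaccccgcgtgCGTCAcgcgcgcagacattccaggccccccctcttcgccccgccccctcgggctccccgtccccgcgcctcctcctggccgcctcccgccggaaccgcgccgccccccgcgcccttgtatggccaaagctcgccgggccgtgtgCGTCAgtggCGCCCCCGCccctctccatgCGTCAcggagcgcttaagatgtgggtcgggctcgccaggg
Npas4: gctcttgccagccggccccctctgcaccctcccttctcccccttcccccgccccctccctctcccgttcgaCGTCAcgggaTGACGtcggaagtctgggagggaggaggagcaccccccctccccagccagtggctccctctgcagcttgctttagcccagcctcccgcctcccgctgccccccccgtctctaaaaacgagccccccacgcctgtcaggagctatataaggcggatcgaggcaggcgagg

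The short CRE was found in the windows of 7 of 7 members, against 19.8% of the 27018 genes with a window. The full element (TGACGTCA) was found in 0 of the 7, against 1.77% of all genes, and the AP-1 site (TGACTCA) in 0, against 5.16%. The CArG box was found in Egr2 alone of the 7, against 1.62% of all genes, and the EGR site in Fosb and Nr4a1, against 2.93%. Both strands were searched, the short form is contained in the full element, and a match is a description of these letters only. The short CRE nearest to the start began -66 bases from it in Fos, -40 in Nr4a1, -55 in Egr2, -109 in Egr4 and -169 in Npas4.

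Depth set the precision of the low members. The total expected count ran from 358355 to 4744036 per library, and was lowest in DGCs (median 929300, against 1072000 for CA1 PNs and 1538000 for CA3 PNs). Egr1 had 4 to 1242 counts per library and Egr2 0 to 57. In DGCs the median library had 5.5 counts of Fos, 6 of Nr4a1, 6 of Npas4 and 1 of Egr2. Egr2 had no count in 9 DGC and 2 CA1 PN libraries, where 3 counts, the limit that a count of 0 allows, would be 1.56 to 8.37 CPM. Such limits were taken on the library total, without TMM. All other levels are given as CPM, counts scaled to a common library size with TMM over all 81 libraries, unless TPM is named.

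Several libraries stood apart. The labelled populations carried their markers: median CPM over the CA1 PN, CA3 PN and DGC libraries, in that order, was 412.8, 23.1 and 14.6 for the CA1 marker Wfs1, 0, 72.8 and 1.14 for the CA3 marker Iyd, and 4.89, 4.41 and 814 for the granule cell marker Prox1. In 6 CA1 PN libraries, however, the mean log2 CPM of 6 CA2 markers (7.11 to 7.82) was above that of 6 CA1 markers (2.53 to 6.75). The 6 were 1 of 2N ChN (mouse 17-21), 2 of 2N ChP (15-336 and 16-90), 1 of Ts ChN (16-357) and 2 of Ts ChP (15-199 and 16-272). A further 4, of 2N ChN mouse 17-154, of 1 2N ChP mouse and of Ts ChP mice 15-140 and 15-198, had CA2 marker means of 5.59 to 6.06, below their CA1 marker means, when the remaining 17 had 1.79 to 3.16. The CA3 PN library of Ts ChP mouse 15-140 had a dentate marker mean of 4.74, when the other CA3 PN libraries had at most 2.75, and 54.7 CPM of Prox1. Mouse 15-145 bears a 2N label on its CA1 PN and DGC libraries and a Ts label on its CA3 PN library, and all were taken as 2N. The CA1 PN library of 17-154, labelled 2N, had triplicated genes at the level of Ts libraries in an earlier analysis of these data.

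The immediate early genes were lower in the 6 CA1 PN libraries with high CA2 markers. Egr3 ran from 22.8 to 92.6 CPM there (median 84.9) and from 119.5 to 287.8 (median 194.0) in the other 21. The ranges of Egr3 did not overlap. Egr1 ran from 149 to 383 CPM (median 229) against 278 to 1024 (median 604), and Nr4a1 from 64.8 to 126 (median 101.5) against 71.7 to 358 (median 154). All 10 members had a lower median in the 6 libraries, Npas4 (17.7 against 26.2 CPM) and Fos (15.2 against 23.1 CPM) included. The same 6 libraries had higher oligodendrocyte markers (median of the list mean 4.74 against 3.81 log2 CPM), vascular markers (2.80 against 2.25) and CA3 markers (4.69 against 1.76). These libraries were grouped after their markers were seen, so no test was made of the 6 against the other 21. The comparisons that hold them are given with and without them where the result changed.

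**Figure D1:**
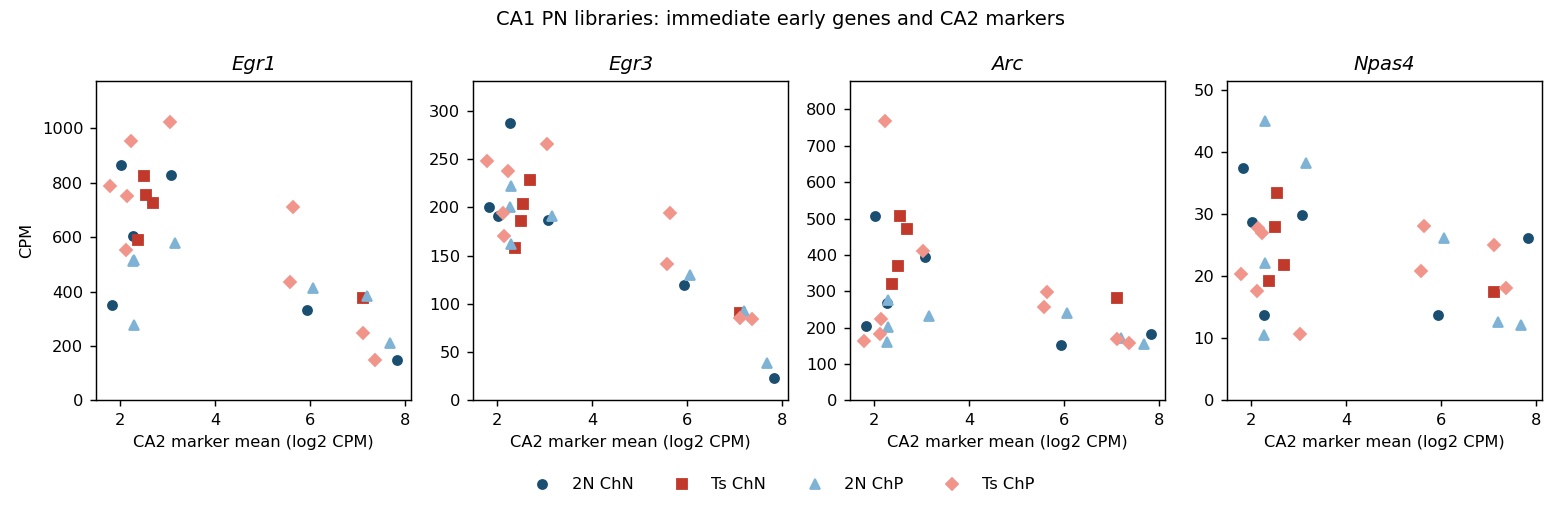
Level (CPM) of members in each of 27 CA1 PN libraries against the mean log2 CPM of 6 CA2 markers in the same library, coloured by genotype and diet. The 6 libraries at the right, with CA2 marker means of 7.11 to 7.82, hold the 6 lowest values of Egr3, all at or below 92.6 CPM.

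Between genes, levels were compared as TPM, which is corrected for length and given here as deposited. In CA1 PNs the order by median TPM was Egr1 (144), Arc (64.5), Nr4a1 (55.7), Egr3 (48.5), Junb (31.3), Egr4 (15.8), Fos (14.2), Npas4 (5.71), Egr2 (5.25) and Fosb (2.87). In CA3 PNs Egr3 (76.7) stood above Egr1 (61.6) and Arc (56.5), followed by Junb (20.6), Fos (18.3), Nr4a1 (16.1), Egr4 (10.2), Npas4 (9.52), Fosb (8.16) and Egr2 (1.75). In DGCs Egr3 (51.4) led and the rest were low: Junb (14.0), Arc (11.2), Egr1 (7.87), Fos (5.08), Egr4 (4.61), Fosb (4.09), Nr4a1 (2.24), Npas4 (2.23) and Egr2 (0.69). The ranges of every pair of neighbours in these orders overlapped, but some neighbours kept their order within libraries. Arc was above Junb in 26 of 26 CA3 PN libraries and Egr3 above Junb in 28 of 28 DGC libraries, whereas Junb was above Fos in 13 of 26 CA3 PN libraries and Egr4 above Fosb in 12 of 28 DGC libraries. Egr3 varied least between the CA3 PN libraries and between the DGC libraries, with coefficients of variation of 12.8 and 14.8% of its CPM. In CA1 PNs its coefficient was 39.8%, above that of Npas4 (37.9%). Egr2 varied most in each population, at 107% in DGCs, 92.9% in CA1 PNs and 68.8% in CA3 PNs.

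**Figure D2:**
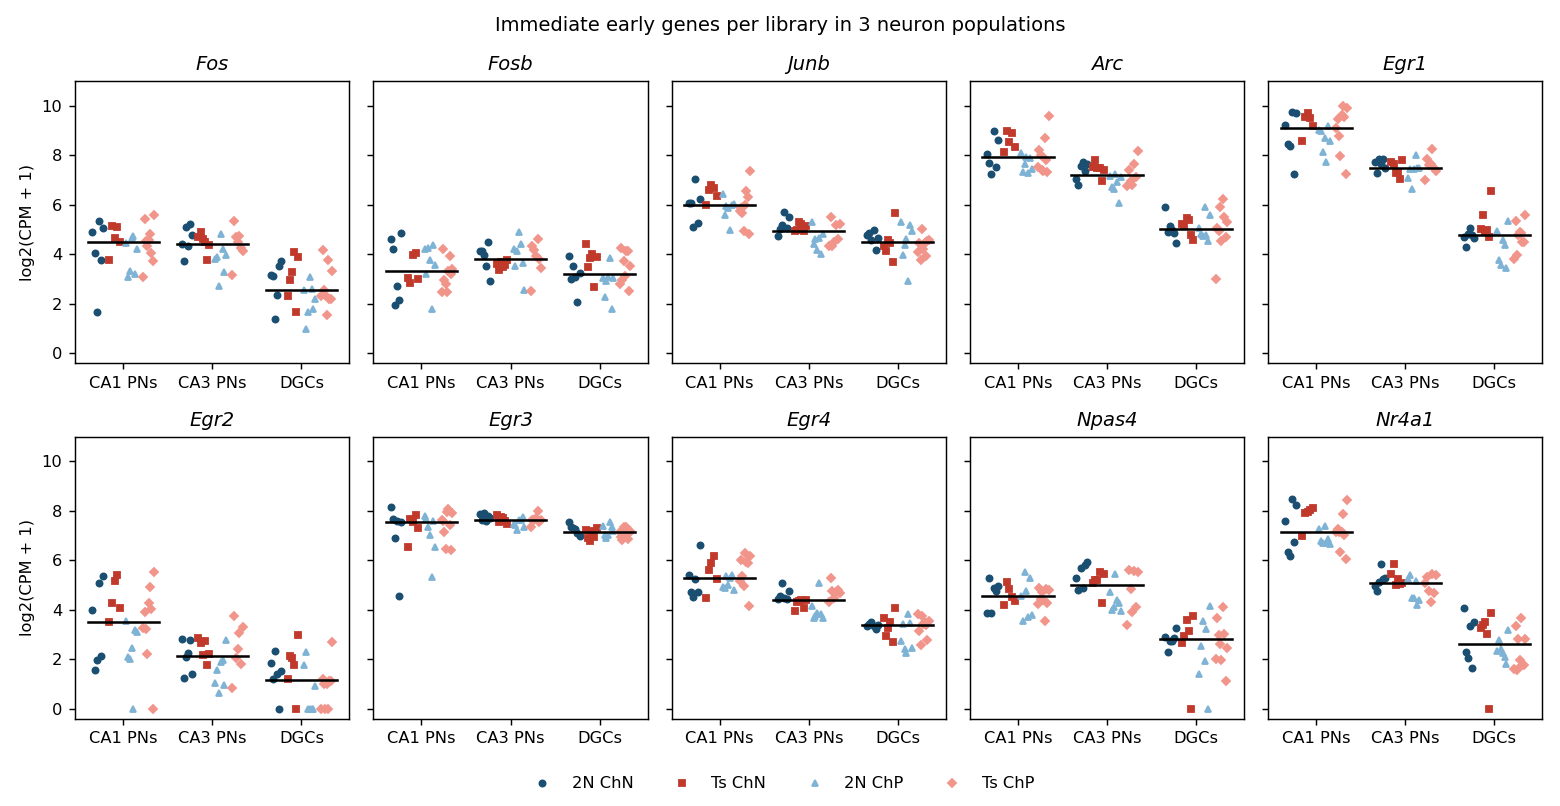
Level of each of the 10 members in every library, as log2(CPM + 1), by neuron population and coloured by genotype and diet. Nr4a1 falls from CA1 PNs (64.8 to 358 CPM) through CA3 PNs (17.2 to 57.4) to DGCs (0 to 15.7) with no shared range, while Egr3 sits near the same level in the 3 populations.

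The largest differences in these genes were between neuron populations. Populations were compared with the mouse as a block, over all 81 libraries, and a gene was called at an adjusted p under 0.05 (edgeR's quasi-likelihood test with Benjamini-Hochberg adjustment). These calls were common: 57.7% of the 20493 genes tested were called between CA3 PNs and DGCs (28% higher in CA3 PNs), 50.9% between CA1 PNs and DGCs (25.8% higher in CA1 PNs) and 40.5% between CA1 and CA3 PNs (20.4% higher in CA1 PNs). Of the members, 10 of 10 were higher in CA3 PNs than in DGCs, 8 of 10 higher in CA1 PNs than in DGCs, and 6 of 10 higher in CA1 than in CA3 PNs, with none called lower. The median log2 fold change (LFC) of the members was 1.44, 2.08 and 0.96 in those comparisons, when that of all genes tested was -0.05, -0.02 and 0.02. The 3 comparisons share libraries, so they are not independent.

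Nr4a1, the orphan nuclear receptor, had the largest LFC of the members between CA1 PNs and each of the other populations. It ran from 64.8 to 358 CPM in CA1 PNs (median 141), from 17.2 to 57.4 in CA3 PNs (median 33.3) and from 0 to 15.7 in DGCs (median 5.07). No library of one population lay within the range of another, and Nr4a1 was higher in CA1 than in CA3 PNs in 25 of 25 mice. The LFC was 2.31 ± 0.11 (SE) for CA1 minus CA3 PNs, 4.77 ± 0.15 for CA1 PNs minus DGCs and 2.46 ± 0.17 for CA3 PNs minus DGCs, with adjusted p = 7.58e-25, 2.81e-34 and 6.57e-19. Its 126 CPM in the CA1 PN library of 16-357 and 64.8 CPM in the lowest were both from libraries with high CA2 markers.

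Among the EGR genes, which share a zinc finger DNA-binding domain, the population differences were unlike each other. Egr1 ran from 149 to 1024 CPM (median 553) in CA1 PNs, from 98.8 to 306 (median 178) in CA3 PNs and from 9.98 to 92.9 (median 26.4) in DGCs. Its LFC was 1.57 ± 0.13 for CA1 minus CA3 PNs and 4.27 ± 0.16 for CA1 PNs minus DGCs (adjusted p = 4.73e-15 and 1.5e-30), and no DGC library reached the range of the PN libraries. Egr4, with medians of 37.8, 20.3 and 9.45 CPM in CA1 PNs, CA3 PNs and DGCs, had LFCs of 1.06 ± 0.10 and 2.25 ± 0.12 in the same comparisons (adjusted p = 5.98e-16 and 1.12e-32). Egr2, the scarcest member in CA3 PNs and DGCs, had medians of 10.3, 3.39 and 1.23 CPM and LFCs of 1.84 ± 0.23 and 2.94 ± 0.27 (adjusted p = 1.84e-10 and 1.26e-15). Egr3 was the exception, with medians of 187, 197 and 142 CPM. It was called between CA3 PNs and DGCs alone (LFC 0.46 ± 0.12, adjusted p = 0.000891), was higher in CA1 than in CA3 PNs in 12 of 25 mice, and its LFC for CA1 minus CA3 PNs was -0.26 ± 0.12 (adjusted p = 0.0789). Without the 6 CA1 PN libraries with high CA2 markers, the LFC of Egr3 for CA1 PNs minus DGCs was 0.44. Those libraries hold the 6 lowest Egr3 values of the CA1 PN libraries. Leaving them out raises the CA1 PN level by itself, so no p is given.

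Arc and Npas4 differed in where they were highest. Arc ran from 151 to 768 CPM in CA1 PNs (median 240.0), 66.9 to 287 in CA3 PNs (median 147) and 7.03 to 73.3 in DGCs (median 31.4), and was higher in CA1 than in CA3 PNs in 24 of 25 mice (LFC 0.87 ± 0.11, adjusted p = 1.05e-09). Npas4 ran from 10.6 to 45.1 CPM in CA1 PNs (median 22.2), 9.55 to 60.2 in CA3 PNs (median 30.6) and 0 to 16.9 in DGCs (median 6.02). It was higher in CA1 than in CA3 PNs in 8 of 25 mice, with an LFC of -0.33 ± 0.16 that was not called (adjusted p = 0.0979), and higher in CA3 PNs than in DGCs in 25 of 26 mice (LFC 2.25 ± 0.20, adjusted p = 4.95e-15).

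The AP-1 genes also differed from each other. Fos did not differ detectably between CA1 PNs (2.17 to 46.7 CPM, median 21.8) and CA3 PNs (5.64 to 39.6, median 20.1), with an LFC of 0.07 ± 0.15 (adjusted p = 0.749). It was lower in DGCs (0.971 to 17.0, median 4.88) and higher in CA1 PNs than in DGCs in 27 of 27 mice (LFC 1.76 ± 0.18, adjusted p = 1.39e-13). Junb was highest in CA1 PNs (26.8 to 162 CPM, median 63.2), above CA3 PNs (15.3 to 50.8) and DGCs (6.64 to 49.9, median 21.7), with LFCs of 1.26 ± 0.12 and 0.39 ± 0.13 for CA1 minus CA3 PNs and CA3 PNs minus DGCs (adjusted p = 6.56e-14 and 0.00939). Fosb had similar medians, 9.11, 12.8 and 8.13 CPM, and was called only for CA3 PNs minus DGCs (LFC 0.45 ± 0.17, adjusted p = 0.022). With library totals in place of TMM the median of all genes for CA3 PNs minus DGCs moved by -0.21, and the differences of Fosb (LFC 0.22, unadjusted p = 0.208), Junb (LFC 0.16, unadjusted p = 0.2503) and Egr3 (LFC 0.23, unadjusted p = 0.07374) were no longer called. The share of called genes that were higher then moved from 48.6 to 34.49% for CA3 PNs minus DGCs and from 50.61 to 37.59% for CA1 PNs minus DGCs.

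The other genes of these families did not all move with the members. Of 9 other AP-1 genes, Jun, the partner of Fos in the classic AP-1 dimer, ran the other way, with LFCs of -1.82 ± 0.14 for CA1 minus CA3 PNs, -4.86 ± 0.12 for CA1 PNs minus DGCs and -3.04 ± 0.10 for CA3 PNs minus DGCs (adjusted p = 4.38e-17, 5.76e-39 and 3.77e-33). Atf3, a stress-induced AP-1 partner, was also higher in DGCs (LFC -3.32 ± 0.50 and -2.89 ± 0.47 for CA1 and CA3 PNs minus DGCs). In CA3 PNs minus DGCs, 1 of the 9 was called higher and 4 lower, with a median LFC of -0.37. Of 50 other early response genes, 22 were called higher and 10 lower for CA1 minus CA3 PNs, 26 and 15 for CA1 PNs minus DGCs, and 25 and 16 for CA3 PNs minus DGCs. Nr4a3, a paralog of Nr4a1, was higher in CA1 and CA3 PNs than in DGCs (LFC 3.79 ± 0.09 and 4.57 ± 0.09), as was Midn (LFC 3.07 ± 0.11 and 2.36 ± 0.11), while Btg2, an antiproliferative early gene, was lower (LFC -2.54 ± 0.15 and -2.16 ± 0.14). Of 37 upstream regulators, 9 were called higher and 22 lower for CA1 PNs minus DGCs. They included Rps6ka2, a kinase downstream of ERK, at -2.08 ± 0.08, and Ppp3cb, a catalytic subunit of calcineurin, at 1.17 ± 0.04.

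The next question was whether the members differed between Ts and 2N mice within a population and a diet. Here a gene was called a DEG at an unadjusted p under 0.05 in edgeR, the threshold of the study, and the adjusted p over all genes tested is given beside it. The exact two-sided permutation test of the same groups on log2 CPM is given as well. It was added after the data were seen, and 10 of its 120 tests of a member in a genotype or diet comparison had a p under 0.05. Chance alone gives about 1 in 20, and these tests share libraries. No member reached an adjusted p under 0.05 in any of the 6 genotype comparisons. On the normal diet CA1 PNs had 0 of 10 members called, when 3.77% of all genes were, CA3 PNs 1 of 10 (9.20% of all genes) and DGCs 2 of 10 (8.50%). On the supplemented diet CA1 PNs had 1 of 10 called (3.60%), CA3 PNs 2 of 10 (4.99%) and DGCs 0 of 9 (7.60%), Egr2 being below the filter on low counts there. In CA1 PNs the member shares lay near those of all genes, but 8 of 10 members had a positive LFC on both diets, with medians of 0.27 and 0.44 against -0.01 and 0.02 for all genes. The normal-diet median was 0.08 without the CA1 PN library of 17-154 and 0.14 without that of 17-21. It was 0.31 without all CA1 PN libraries with high CA2 markers. The members were measured in the same libraries, so their signs are not independent.

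Egr4 carried 3 of the 6 calls. In CA3 PNs of the normal diet it ran from 14.4 to 20.2 CPM in Ts mice (median 19.3) and from 20.4 to 33.0 in 2N mice (median 22.1). The groups did not overlap, although the highest Ts and the lowest 2N library nearly met, and the LFC was -0.38 ± 0.18 (edgeR p = 0.0447, adjusted p = 0.522, exact permutation p = 0.00216). With 6 against 6 libraries this exact p is the smallest possible and follows from the lack of overlap, so it adds nothing to it. In CA3 PNs of the supplemented diet the order was reversed, with 19.1 to 37.7 CPM in Ts mice (median 25.4) and 11.6 to 33.2 in 2N mice (median 13.4), an LFC of 0.74 ± 0.21 (edgeR p = 0.000816, adjusted p = 0.172, exact permutation p = 0.0105). The 7 Ts libraries were all above the 2N median, and a single 2N library, of mouse 15-336, overlapped them. In CA1 PNs of the supplemented diet Egr4 ran from 16.9 to 77.5 CPM in Ts mice (median 58.5) and from 26.9 to 41.8 in 2N mice (median 30.7), with an LFC of 0.56 ± 0.26 (edgeR p = 0.0409, adjusted p = 1, exact permutation p = 0.125). Inhibitory neuron markers moved with the normal-diet comparison of CA3 PNs, where 5 of 7 were called lower in Ts (list mean 3.62 to 4.16 log2 CPM in Ts and 3.92 to 5.08 in 2N). So did astrocyte markers, of which 3 of 6 were called lower in Ts (median LFC -0.30). Their part in the result was not tested.

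By the exact test the 2 Egr4 differences in CA3 PNs had a p under 0.05 and the one in CA1 PNs did not. The other genotype calls were Egr2 in CA3 PNs, and Egr3 and Fosb in DGCs. Egr2, which had 1 to 25 counts in a CA3 PN library, ran from 0.796 to 12.3 CPM in Ts ChP mice (median 4.35) and from 0.564 to 5.78 in 2N ChP mice (median 1.96), with an LFC of 1.31 ± 0.51 (edgeR p = 0.0131, adjusted p = 0.716, exact permutation p = 0.0723). Its highest value was that of mouse 15-140, whose CA3 PN library held dentate markers, and without that library the LFC was 1.02 and was not called. In DGCs of the normal diet Egr3 ran from 109.6 to 156 CPM in Ts mice (median 133) and from 126 to 187 in 2N mice (median 155), an LFC of -0.22 ± 0.10 (edgeR p = 0.0294, adjusted p = 0.528, exact permutation p = 0.0952). Fosb ran from 5.42 to 20.4 CPM in Ts mice (median 13.5) and from 3.14 to 14.3 in 2N mice (median 7.94), an LFC of 0.66 ± 0.30 (edgeR p = 0.0296, adjusted p = 0.528, exact permutation p = 0.134). Egr1 had a similar LFC in these libraries (0.70 ± 0.33) that was not called in edgeR (p = 0.0537, exact permutation p = 0.0411). It was called with DESeq2, limma-voom, no filter and all 4 groups in 1 fit. It was also called in edgeR when Ts mouse 16-357, 17-153, 17-157, 17-173 or 17-192 was left out. Without 17-192 the LFC was 0.37 (edgeR unadjusted p = 0.04921). Fosb was not called with DESeq2. Leaving out 1 library ended the call of Fosb in 5 of 12 fits, that of Egr3 in 4 of 12, that of Egr4 in CA3 PNs of the normal diet in 5 of 12 and that of Egr4 in CA1 PNs in 10 of 16. The call of Egr4 in CA3 PNs of the supplemented diet was kept in all 14. Without the CA1 PN libraries with high CA2 markers, which were set apart after the data were seen, 4 members were called in CA1 PNs of the supplemented diet. Of the 12817 genes tested 747 were called there. The members were Egr4, Egr2 (LFC 1.71, edgeR unadjusted p = 0.00669), Egr1 (LFC 0.69, edgeR unadjusted p = 0.01697) and, lower in Ts, Fosb (LFC -0.70, edgeR unadjusted p = 0.04014).

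The genotype differences of the members were tested between populations in 1 model with the mouse as a block. Of the members, 2 of 10 were called, when 5.03% of all genes were. They were Fosb (adjusted p = 0.687) and Egr1 (adjusted p = 0.985). Fosb had LFCs for Ts minus 2N of -0.43, -0.44 and 0.66 in CA1 PNs, CA3 PNs and DGCs of the normal diet, and of -0.54, -0.12 and 0.63 on the supplemented diet. For the diet difference between populations 0 of 10 members were called (3.13% of all genes), with an adjusted p of 1 for each.

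Few genes upstream of the members passed the adjusted threshold by genotype. Rps6ka2, which lies in a segment that the Ts65Dn marker chromosome carries outside the regions orthologous to the human chromosome, was higher in Ts in DGCs on both diets (LFC 0.54 ± 0.12, adjusted p = 0.0111, and 0.49 ± 0.11, adjusted p = 0.0101) and, at the unadjusted threshold, in CA3 PNs on both diets (LFC 0.64 ± 0.19 and 0.68 ± 0.18) and in CA1 PNs of the supplemented diet (LFC 0.75 ± 0.21). In CA3 PNs of the normal diet Prkacb, a catalytic subunit of protein kinase A, was higher in Ts (LFC 0.52 ± 0.09, adjusted p = 0.000751), as was Jun (LFC 1.11 ± 0.22, adjusted p = 0.0257), the only other AP-1 gene of 5 tested to be called. In DGCs of the supplemented diet Mef2c, which encodes a MEF2 factor, was higher in Ts (LFC 0.28 ± 0.07, adjusted p = 0.0389). Of 36 upstream regulators tested in CA3 PNs of the normal diet 4 were called higher and 2 lower at the unadjusted threshold, and of 43 other early response genes 1 higher and 1 lower. The share of the regulators was above the 9.20% of all genes and that of the early response genes below it.

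Of the genotype and diet comparisons, the one between maternal diets in CA3 PNs of 2N mice had the most members called. There 6 of 10 members were called lower on the supplemented diet, when 4.08% of the 13684 genes tested were called and 2.17% were called lower. They were Npas4, Egr4, Junb, Egr3, Fos and Arc. Of the 10 LFCs 9 were negative, with a median of -0.51 against -0.00282 for all genes. The members share these libraries, so their calls and signs are not independent, here or in the comparisons below. The adjusted p was 0.998 for each member (edgeR's quasi-likelihood test with Benjamini-Hochberg adjustment), so each call rests on the unadjusted p.

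Npas4, which in neurons switches on genes of inhibitory synapses, showed the largest of these differences. It ran from 14.5 to 42.4 CPM in 2N ChP libraries (median 18.1) and from 26.8 to 60.2 in 2N ChN libraries (median 43.9), resting on 14 to 155 counts per library. Of the 7 ChP libraries 6 were below the lowest ChN library, and the remaining library lay within their range. The LFC was -0.90 ± 0.25 (edgeR p = 0.00191, exact permutation p = 0.0105).

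Among the AP-1 genes Fos and Junb were lower and Fosb was not. Fos ran from 5.64 to 27.3 CPM in ChP libraries (median 13.8) and from 12.1 to 36.4 in ChN libraries (median 23.2), an LFC of -0.77 ± 0.29 (edgeR p = 0.0149, exact permutation p = 0.0466). Junb ran from 15.3 to 38.0 CPM (median 23.7) against 25.7 to 50.8 (median 33.4), an LFC of -0.55 ± 0.19 (edgeR p = 0.00715, exact permutation p = 0.0186). For both genes the ranges overlapped, and 1 of 7 ChP libraries was above the ChN median. Fosb had 4.82 to 28.7 CPM (median 16.4) against 6.51 to 21.5 (median 15.8), with an LFC of 0.09 ± 0.26 (edgeR p = 0.744, exact permutation p = 0.916).

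Of the EGR genes 2 were called. Egr4 ran from 11.6 to 33.2 CPM in ChP libraries (median 13.4) and from 20.4 to 33.0 in ChN libraries (median 22.1), an LFC of -0.63 ± 0.22 (edgeR p = 0.00608, exact permutation p = 0.0256). Of its 7 ChP libraries 6 lay at or below 16.8 CPM, under every ChN library, and mouse 15-336 lay above them all. Egr3 ran from 147 to 214 CPM (median 174) against 189 to 240 (median 216), an LFC of -0.25 ± 0.09 (edgeR p = 0.00978, exact permutation p = 0.021), with 0 of 7 ChP libraries above the ChN median. Egr1 (LFC -0.25 ± 0.18, exact permutation p = 0.192) and Egr2 (LFC -0.88 ± 0.50, exact permutation p = 0.184) were not called. Arc ran from 66.9 to 151 CPM in ChP libraries (median 121) and from 109 to 208 in ChN libraries (median 176), an LFC of -0.47 ± 0.20 (edgeR p = 0.036, exact permutation p = 0.0373), and Nr4a1 had an LFC of -0.38 ± 0.20 (edgeR p = 0.0739, exact permutation p = 0.108).

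**Figure D3:**
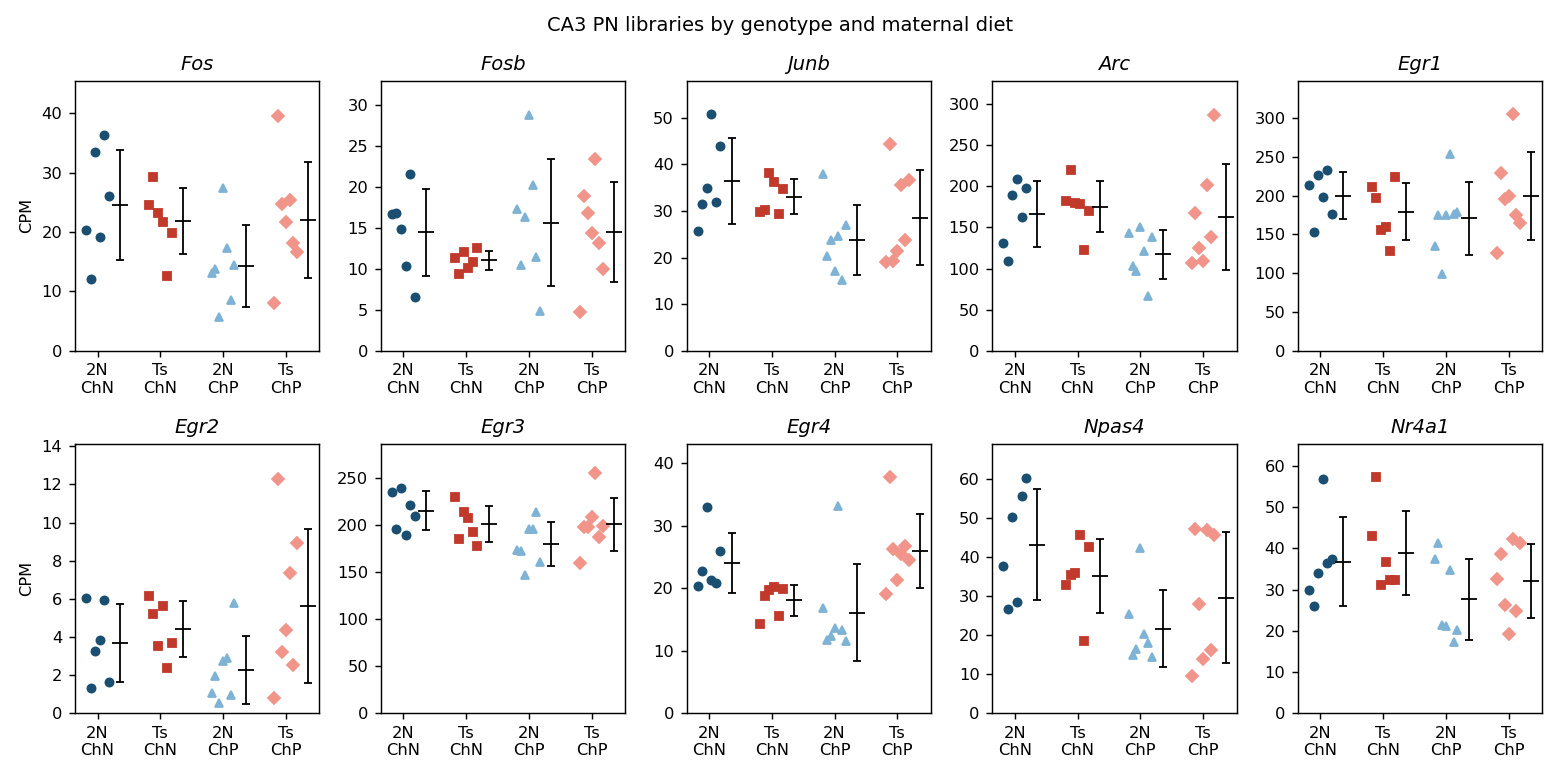
Level (CPM) of members in each CA3 PN library by genotype and maternal diet, with 1 point per mouse and the group mean ± SD. In 2N mice 6 members are called lower on the supplemented diet, and Egr4 shows the opposite order of diets in Ts mice, from 14.4 to 20.2 CPM on the normal diet and from 19.1 to 37.7 CPM on the supplemented diet.

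Leaving out each of the 13 libraries in turn kept the calls of Npas4, Egr4, Junb, Egr3 and Fos in all 13 fits, with a highest p of 0.006924, 0.03984, 0.04809, 0.04263 and 0.04606. Arc was lost in 7 of the 13. All 6 had an exact permutation p under 0.05 and kept their calls in the 7 other settings tried, DESeq2, limma-voom and the CA3 PN library of 15-145 under its own label among them. Total counts were similar (median 1584894 in ChP and 1791749 in ChN libraries, though the ChN libraries ran up to 4744036). The CA3 marker mean was 5.72 to 5.99 log2 CPM in ChP and 5.82 to 6.06 in ChN libraries, the inhibitory marker mean 3.80 to 4.81 and 3.92 to 5.08 (medians 4.21 and 4.78), the vascular mean 2.60 to 2.77 and 2.27 to 2.76, and the heat shock gene mean 3.98 to 4.68 and 4.17 to 4.74. The part of these differences in the result was not tested, and the labels used here give no litter, time of day or handling before death. The diet was given to the dams, so mice of the same litter would not be independent replicates of it. The 2N diet groups also differed in mouse numbers. ChN mice 17-154, 17-172, 17-21 and 17-56 bear numbers of a series to which no 2N ChP mouse belongs. The labels do not say what the series stands for, and its part in the result was not tested.

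Other early response genes leaned the same way in these libraries, with fewer calls. They share the libraries with the members and with each other, so their signs are not independent. Of 44 tested, 0 were called higher and 3 lower, and 34 of 44 LFCs were negative, with a median of -0.11. The 3 were Arl4d (LFC -1.54 ± 0.41), Sik1, a salt-inducible kinase induced by cAMP (LFC -1.23 ± 0.44), and Dusp4, a phosphatase of MAP kinases (LFC -0.73 ± 0.28), each with an adjusted p of 0.998. Of 5 other AP-1 genes none was called by edgeR at the unadjusted threshold. Of 36 upstream regulators 0 were called, with a median LFC of 0.003, near the -0.00282 of all genes.

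In the other diet comparisons few members were called. In 2N CA1 PNs 0 of 10 were called (2.24% of all genes), although all 10 LFCs were negative (median -0.30), and in Ts CA1 PNs 0 of 10 (3.26%), with 8 negative (median -0.16). In 2N DGCs 0 of 9 were called (5.52%), with 7 negative (median -0.15), and in Ts DGCs 0 of 10 (3.94%), with 8 negative (median -0.23). In Ts CA3 PNs 1 of 10 was called (4.90%). That was Egr4, which was higher on the supplemented diet, at 19.1 to 37.7 CPM (median 25.4) against 14.4 to 20.2 (median 19.3), with an LFC of 0.50 ± 0.18 (edgeR p = 0.00679, adjusted p = 0.988, exact permutation p = 0.00466). Its call was kept in all 13 fits without 1 library. The 10 LFCs in Ts CA3 PNs had a median of 0.03, with 6 positive and 4 negative.

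The low calls in CA1 PNs went with a wide spread among the 2N ChN libraries. Nr4a1 ran there from 71.7 to 358 CPM (median 150) and from 99.3 to 165 (median 108) in 2N ChP libraries, an LFC of -0.60 ± 0.38 (exact permutation p = 0.369). Egr2 ran from 1.92 to 40.2 CPM (median 9.18) against 0 to 10.5 (median 4.55), an LFC of -1.52 ± 0.75 (exact permutation p = 0.212). Arc ran from 151 to 506 CPM (median 236) against 156 to 275 (median 201), an LFC of -0.46 ± 0.27 (exact permutation p = 0.238). For all 3 genes mice 17-172 and 17-56 held the highest ChN values and lay above every ChP library, while mice 17-154 and 17-21, the ChN mice with the highest CA2 marker means (5.94 and 7.82), lay below the ChP median. The part of the CA2 markers in these values was not tested. Mouse 17-154, whose label was in doubt, had the lowest Nr4a1 and Arc of the group. Without it the 3 genes were called lower on the supplemented diet at the unadjusted threshold (LFC -0.77, -1.77 and -0.59). Of the 12439 genes tested 225 were called there. Because the library of 17-154 was low in all 3 genes, leaving it out raises the ChN level by itself.

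In DGCs Fos ran from 0.971 to 7.52 CPM in 2N ChP libraries (median 3.56) and from 1.59 to 12.3 in 2N ChN libraries (median 7.77), an LFC of -0.81 ± 0.45 (exact permutation p = 0.105). Nr4a1 ran from 1.95 to 11.6 CPM in Ts ChP libraries (median 2.91) and from 0 to 13.6 in Ts ChN libraries (median 9.05), an LFC of -0.73 ± 0.39 (exact permutation p = 0.334). Both genes rested on 20 counts or fewer in every DGC library.

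**Figure D4:**
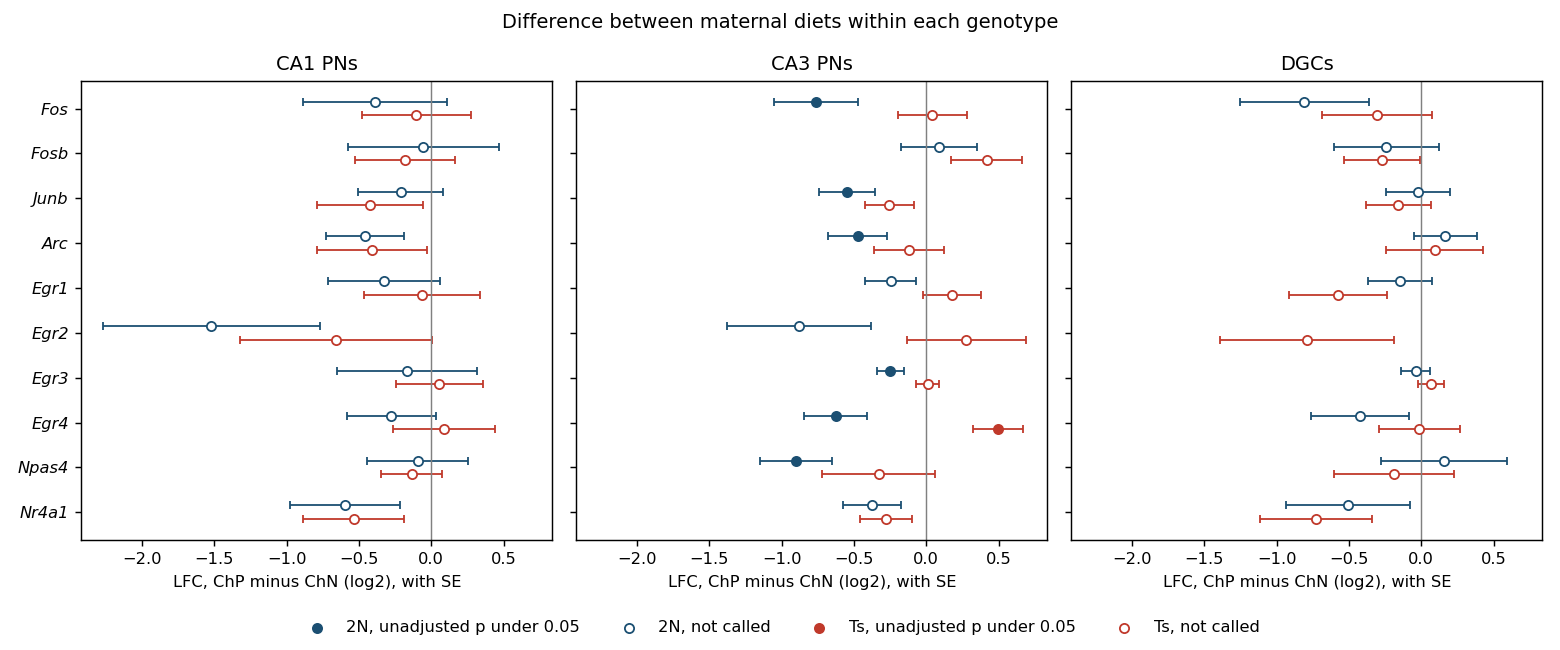
LFC between maternal diets (ChP minus ChN, with SE) of each member in CA1 PNs, CA3 PNs and DGCs, for 2N and Ts mice. In CA3 PNs the 2N values lie below 0 for 9 of 10 members (median -0.51), and the Ts values around 0 (median 0.03).

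Whether the diet difference in CA3 PNs itself differed by genotype was tested as an interaction over all 4 groups. All 10 interaction LFCs were positive, with a median of 0.39 against 0.01 for all genes, and 2 of 10 members were called, when 4.87% of all genes were. Egr4 had an interaction LFC of 1.13 ± 0.28 (adjusted p = 0.564) and Egr3 one of 0.26 ± 0.12 (adjusted p = 0.983). Npas4 (0.58 ± 0.49, adjusted p = 0.997), Junb (0.29 ± 0.27, adjusted p = 0.997) and Fos (0.80 ± 0.44, adjusted p = 0.996) were not called, so a difference between genotypes in their diet effect was not shown. In CA1 PNs 0 of 10 were called (3.22% of all genes) and in DGCs 0 of 10 (3.97%). The genotype, diet and interaction comparisons of CA3 PNs share libraries and are different contrasts of the same 4 groups. The 10 members share these libraries too, so the signs of their interaction LFCs are not independent.

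A member that was high in one population of a mouse was sometimes high in another. After removal of the group means, the log2 CPM of each member was correlated over mice for each pair of populations, 30 relations in all, with a permutation test within groups. Of the 30 Pearson r, 25 were positive, with a median of 0.28, and 2 had an adjusted p under 0.05. Fos correlated between CA1 PNs and DGCs over 27 mice (r = 0.653, permutation p = 0.00044, adjusted p = 0.0132, Spearman rho = 0.623, permutation p = 0.00111, adjusted p = 0.0333). Without the 2 mice farthest from the median r was 0.584, and it was 0.567 among the 11 ChN mice and 0.745 among the 16 ChP mice. Arc correlated between CA1 and CA3 PNs over 25 mice (r = 0.635, permutation p = 0.00256, adjusted p = 0.0384), with a rho of 0.596 (permutation p = 0.00489) that did not pass adjustment (adjusted p = 0.0734). Its r was 0.453 without the 2 farthest mice, 0.451 among the 11 ChN mice and 0.730 among the 14 ChP mice. Between CA3 PNs and DGCs all 10 r were positive, from 0.157 (Junb) to 0.445 (Egr1), and none passed adjustment. The 3 libraries of a mouse come from the same sections.

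**Figure D5:**
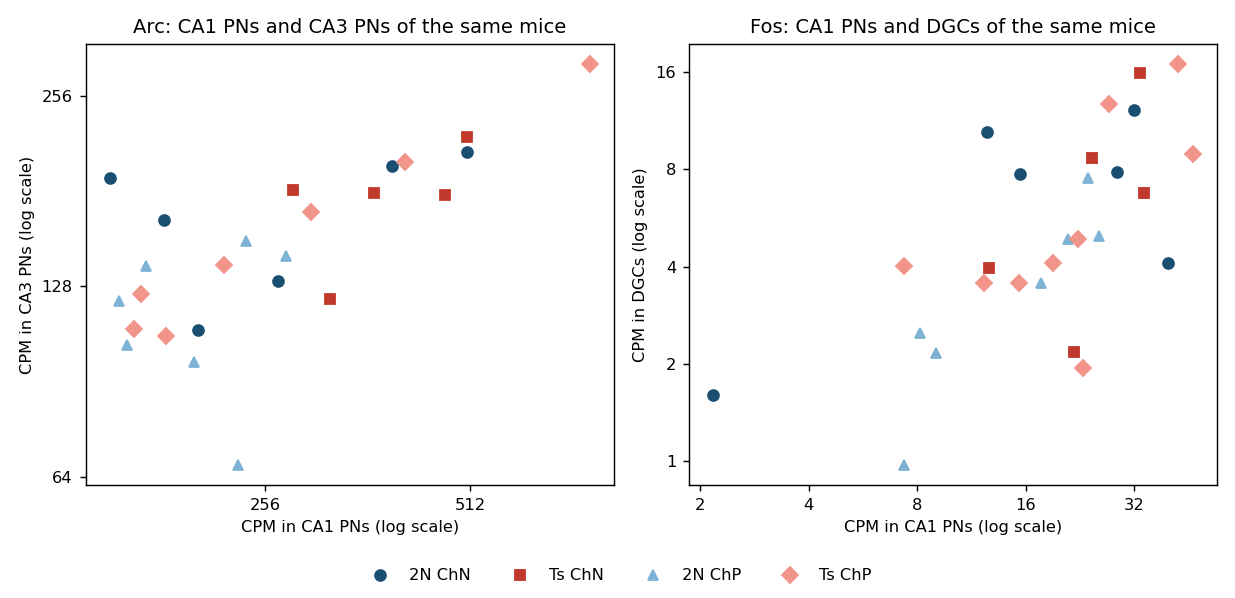
CPM (log scales) of Fos in CA1 PNs and DGCs and of Arc in CA1 and CA3 PNs, with 1 point per mouse, coloured by genotype and diet. Mice with a high level in one population tend to have a high level in the other, with r = 0.653 over 27 mice and r = 0.635 over 25 mice after removal of the group means.

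Genes that varied with the members between libraries were ranked by the mean, over the 3 populations, of their r with the averaged members after removal of group means, among 8835 genes with a mean log2 CPM of at least 3 in each population. The 10 highest were Per1 (0.691), Homer1 (0.622), Zfhx2 (0.585), Sbk1 (0.577), Slc35f4 (0.563), Midn (0.534), Atp1b2 (0.525), Gria1 (0.517), Per2 (0.514) and Fkbp4 (0.495). Per1 is a clock gene that is also induced by cAMP and glucocorticoids, Homer1 encodes a scaffold of the postsynaptic density with an activity-induced short form, and Gria1 a subunit of AMPA receptors. The r of Per1 was 0.733 over the 27 CA1 PN libraries, 0.689 over the 26 CA3 PN libraries and 0.650 over the 28 DGC libraries, which share differences of depth and preparation. Others were less even, such as Gria1 (0.751, 0.281 and 0.520 in that order) and Zfhx2 (0.622, 0.705 and 0.427). The CA1 PN values include the libraries with high CA2 markers, where the members were lower, and the ranking was not repeated without them. Of the early response list 27 genes were ranked, with a median of 0.228 and 5 within the first 100, whereas the 35 upstream regulators ranked had a median of -0.012 and all genes one of -0.008.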

How the data were processed

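The authors trimmed the paired reads where needed with Trimmomatic (0.39), aligned them with STAR, and estimated expected counts per gene with RSEM on a Gencode annotation of GRCm39, while the labels also name mm10. The deposited expected counts of 57010 gene IDs were used, of which 56310 had a symbol, and those of the members were all whole numbers. The deposited TPM values are the authors' RSEM estimates of abundance per length and were used only to order genes. No per-sample column was left out.

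Total expected counts ran from 358355 to 4744036 per library, and mitochondrial genes took 4.64 to 12.17%. Counts were rounded and tested with edgeR 4.0.16 in R 4.3.3 (TMM, robust quasi-likelihood fit, two-sided test), with Benjamini-Hochberg adjustment over all genes tested, which needed more than 0.1 CPM in 10 or more compared libraries. Genotype and diet were compared within each population at an unadjusted p under 0.05, the study's threshold. Its covariates (RNA concentration and read percentages) were not used. Exact permutation tests of log2 CPM, added after the data were seen, stand beside them. Populations were compared with the mouse as a block at an adjusted p under 0.05, since the libraries come from the same animals. Fold changes are on edgeR's log2 scale with its prior, and per-library log2 CPM took a prior count of 2. The SE of an LFC was derived as its absolute value divided by the square root of the F statistic of its test. DESeq2 1.42.0, limma-voom 3.58.1, library totals, other filters, other sets of libraries and each library left out in turn were alternatives. Scripts were tested on simulated counts. Within a population each library is from a separate mouse, so the spread between libraries is that between animals and preparations. The labels give no litter, so mice were treated as independent although the diet was given to the dams. Intervals were not computed, and the limit of 3 counts for a gene with no count covers counting error only.

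The named genes are the 10 members, the genes of fixed lists called in a comparison, and the 10 genes most like the members. The members, marker lists and gene lists were chosen with earlier results of these data known. Promoter windows are RefSeq sequences of GRCm38.p6. The check of the CA1 PN library of 17-154 was not repeated here.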

Additional observations from a re-analysis of the deposited data

Results flagged for a closer look

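A library far from the rest of its group was found in 8 of the 120 groups of a member, population, genotype and diet, where chance alone gives about 1 in 20. The value given for each is the gap to the nearest other library divided by the range of the group. Both were taken on per-library log2 CPM, with the prior count given above, and not on the CPM printed beside the value. On CPM the values would differ, and that scale was not used for the flags. For a library with no count the value also depends on the prior count. None of 50 tests of whether a genotype or diet difference changed with diet or population had an adjusted p under 0.05 (edgeR), while the unadjusted calls are those given above.

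Mouse 17-173, a Ts ChN animal, was the low library in 3 of the 8. Its DGC library, with 837456 counts, had no count of Npas4 (0.6684) when the other 5 had 5.26 to 12.5 CPM, and no count of Nr4a1 (0.7531) when the others had 7.14 to 13.6 CPM. The limit that a count of 0 allows there is 3.58 CPM, below the lowest of the others for both genes. This limit is taken on the library total without TMM, so its scale is not quite that of the levels beside it. Its CA3 PN library had 18.6 CPM of Npas4 (0.6289) against 32.8 to 45.6 CPM.

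A pair of the low CA1 PN libraries was among those with high CA2 markers. Mouse 17-21 (2N ChN) had 22.8 CPM of Egr3 (0.6477) against 119.5 to 287.8 CPM, and mouse 16-357 (Ts ChN) had 126 CPM of Nr4a1 (0.8134) against 239.9 to 278 CPM. The part of the markers in these values was not tested.

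The CA3 PN library of mouse 15-336 (2N ChP) had 33.2 CPM of Egr4 (0.6553) when the other 6 had 11.6 to 16.8 CPM. The CA1 PN library of mouse 15-36 (Ts ChP) had 10.6 CPM of Npas4 (0.5034) against 17.5 to 28.2 CPM. The DGC library of mouse 17-03 (Ts ChP) had 5.57 CPM of Egr2 (0.6038) against 0 to 1.31 CPM in the other 8, a gene with a median of 1 count in a DGC library.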

How the results depend on the processing

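Counts of members called by edgeR are given first, then those under the alternatives. In CA3 PNs of 2N mice 6 members were called lower between diets, and 6 to 8 in the other settings. The other counts were small and changed. Between genotypes in CA1 PNs of the supplemented diet 1 member was called, 2 with DESeq2, 0 with limma-voom, library totals, filterByExpr, no filter or all 4 groups in 1 fit, and 4 without the 6 libraries with high CA2 markers, an alternative chosen after seeing the data. In CA3 PNs of the normal diet 1 was called, 0 with DESeq2, limma-voom, library totals or all 4 groups, and 2 with no filter. In CA3 PNs of the supplemented diet 2 were called, 3 with DESeq2, limma-voom or no filter (Fos added), 1 with filterByExpr and 1 without the library of 15-140, also chosen after seeing the data. With no filter the count of 0 became 1 between genotypes in CA1 PNs of the normal diet and in DGCs of the supplemented diet (also 1 with all 4 groups), and 1 between diets in Ts DGCs. Between diets in 2N CA1 PNs 0 became 1 with DESeq2, 1 without 17-21 and 3 without 17-154 (Arc, Egr2 and Nr4a1, lower on the supplemented diet), and in Ts CA1 PNs 1 with limma-voom. In Ts CA3 PNs 1 became 2 without 15-140 (Junb, LFC -0.39). For genotype by diet in CA3 PNs 2 became 1 with DESeq2, library totals, filterByExpr or the CA3 PN library of 15-145 as Ts. For genotype by population 2 became 1 with library totals, and of the 2 relations between populations of a mouse 1 passed with library totals. Without the CA1 PN libraries of 17-21 and 17-154 3 relations passed (Fos in CA1 and CA3 PNs added, r = 0.654). Without the 6 libraries with high CA2 markers, set apart after seeing the data, 3 passed (Junb in CA1 PNs and DGCs added, r = 0.570). The cause of these changes was not tested. No member value past its threshold changed sign.

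Leaving out each library in turn gave 0 to 2 members called between genotypes in CA1 PNs (most without 17-172), 0 to 2 in CA3 PNs (most without 17-172) and 1 to 4 in DGCs (most without 17-192) of the normal diet, and 0 to 3 (most without 16-272), 1 to 4 (most without 14-90, fewest without 15-140) and 0 to 2 (most without 15-336) on the supplemented diet. Between diets it gave 0 to 3, 5 to 8 and 0 to 1 in 2N CA1 PNs, CA3 PNs and DGCs (most in CA1 PNs without 17-154), and 0 to 3, 1 to 2 and 0 to 2 in Ts (most in CA1 PNs and DGCs without 17-03).

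The mice pair the libraries of different populations, and the population fits hold this replicate block. With no replicate block 7 members were called between CA1 and CA3 PNs, with Npas4 lower (LFC -0.41), 8 between CA1 PNs and DGCs, 10 between CA3 PNs and DGCs, 1 for genotype by population and 0 for diet by population. With only the 2N mice of the normal diet, Arc for CA1 minus CA3 PNs, Fos for CA1 PNs minus DGCs, and Fosb, Egr2 and Egr3 for CA3 PNs minus DGCs were no longer called, while Npas4 was called lower in CA1 than in CA3 PNs (LFC -0.78).

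Over all genes, 3456, 5071 and 6477 were called between populations with only those mice and 6233, 7300 and 7897 with filterByExpr, against 8293, 10435 and 11816. With no filter the counts between diets rose from 558 to 1291 in 2N CA3 PNs and from 290 to 1027 in 2N CA1 PNs, where filterByExpr gave 175, and all other genotype and diet counts rose too, to between 1067 and 2028. Library totals moved the split of higher and lower calls by over 10 percentage points, from 219 and 244 to 312 and 136 between genotypes in CA1 PNs of the normal diet, from 306 and 209 to 208 and 307 on the supplemented diet, from 151 and 139 to 193 and 96 between diets in 2N CA1 PNs, from 279 and 178 to 175 and 285 in Ts CA1 PNs, from 379 and 302 to 258 and 436 in Ts CA3 PNs and from 248 and 321 to 310 and 247 in Ts DGCs. Counts of 0 to 10 per library limit Egr2 in DGCs.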
